A study of Homo sapiens with 6 samples.

Results

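FOXM1, the mitotic kinases and the CDC25 phosphatases form a regulatory circuit that carries cells from G2 into mitosis. This account covers 10 of its genes (FOXM1, PLK1, PLK4, AURKA, AURKB, WEE1, PKMYT1, CDC25A, CDC25B and CDC25C). The members were taken by gene symbol alone, as the probe sets that the platform annotation pairs with exactly 1 symbol. They are measured by 12 probe sets, 3 of them for WEE1 and 1 for each of the other genes, out of 19309 probe sets with a single symbol (18376 genes) and 28868 in all.

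The mRNA of PC3 cells was hybridised to 6 whole-transcript arrays. PC3 is a human prostate cancer cell line labelled as aggressive and androgen negative. The cells of 3 samples carried ectopic miR-34c, a microRNA, and those of the other 3 samples carried a scramble mimic as the control; no other treatment, and no time after it, is given in the sources used here. The titles and labels of the samples, and the title of the series, name miR-34c, whereas the design text names miR-205, so the groups are called here as the sample labels call them. The labels leave unsaid whether replicate arrays stand for separate cultures, and p-values then reflect the scatter among these 6 arrays alone, which may be technical.

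Entry into mitosis depends on the cyclin-dependent kinase CDK1. WEE1 and PKMYT1 hold CDK1 inactive by adding inhibitory phosphates, and the CDC25 phosphatases remove them. Polo-like kinase 1 and the Aurora kinases then drive centrosome maturation, spindle assembly and chromosome segregation, and FOXM1 is the transcription factor that, with the MuvB complex and B-MYB, switches on many genes of this phase.

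The deposited values are on the log2 scale and lie around 0, because a reference value that the sources used here do not describe was subtracted from each probe set. A value therefore says how an array stands relative to the other arrays for the same probe set and nothing about how abundant a transcript is, and levels of different genes are not compared. The median of an array over all probe sets lay between -0.0303 and 0.0615, correlations between arrays of 1 group lay between 0.774 and 0.875, and those between arrays of different groups between 0.557 and 0.699. Whether PC3 cells express their defining markers cannot be read from values relative to an unknown reference, and the level of miR-34c itself was not analysed here. In all, 1529 probe sets (7.92%) were lower and 1459 (7.56%) higher with miR-34c (limma, adjusted by Benjamini-Hochberg, threshold 0.05), and the median log2 change was -0.0345. Without miR-34c replicate 2 these counts were 857 and 832, and without miR-34c replicate 3 they were 783 and 864. With single arrays left out, the median log2 change ran from -0.054 (without scramble replicate 3) to -0.0051 (without scramble replicate 2). Of prostate and epithelial markers, KRT8, CDH1 and an EPCAM probe set were higher with miR-34c. Their log2 changes were 0.30, 0.40 and 1.00 (limma adjusted p = 0.0409, 0.0329 and 0.00571). KRT18, KRT19, KLK3 and the other EPCAM probe set did not pass. None of 13 probe sets of leukocyte markers passed in limma (0 at an unadjusted p under 0.05). Of 15 probe sets of fibroblast and endothelial markers 2 fell, a PECAM1 and a PDGFRA probe set. The mean of that list lay between -0.0821 and -0.0338 on the miR-34c arrays and between 0.105 and 0.163 on the scramble arrays. The PECAM1 probe set that fell had the largest change of the list (-1.17). The other PECAM1 probe set, at a log2 change of -0.30, did not pass (limma adjusted p = 0.144). The part of this list in the results below was not tested.

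For 6 of the 10 members a promoter window was matched in RefSeq (GRCh38.p14), running from 250 bases before to 50 after an annotated start. A single window was used per gene, and other starts of a gene were not searched. These windows were searched on both strands for the letters of elements known from genes of the cell cycle. The elements were the CHR (cell cycle genes homology region, TTTGAA or TTCGAA), to which MuvB binds, the CCAAT box, to which NF-Y binds and which reads ATTGG on the opposite strand, the forkhead core TAAACA, and the E2F forms TTTCGCGC and TTTGGCGC. The last 130 bases before the start are printed, because every match in the 6 windows fell there. They are given 5′ to 3′ on the strand of the gene, with matched motifs in capitals, first for the 3 genes that fell with miR-34c (PLK1, CDC25C and CDC25A) and then for the 3 that did not pass the test. The stretches lie at chr16:23678759-23678888 (plus strand, PLK1), chr5:138331805-138331934 (minus, CDC25C), chr3:48188418-48188547 (minus, CDC25A), chr4:127881501-127881630 (plus, PLK4), chr17:8210250-8210379 (minus, AURKB) and chr20:3799918-3800047 (plus, CDC25B).
PLK1: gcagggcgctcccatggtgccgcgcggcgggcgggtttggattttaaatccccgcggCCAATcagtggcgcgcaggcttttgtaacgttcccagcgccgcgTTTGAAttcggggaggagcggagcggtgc
CDC25C: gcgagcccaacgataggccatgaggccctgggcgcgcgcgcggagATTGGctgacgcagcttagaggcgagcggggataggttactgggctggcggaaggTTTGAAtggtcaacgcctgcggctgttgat
CDC25A: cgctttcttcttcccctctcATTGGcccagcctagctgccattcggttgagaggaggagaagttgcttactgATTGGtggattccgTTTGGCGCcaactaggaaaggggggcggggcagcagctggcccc
PLK4: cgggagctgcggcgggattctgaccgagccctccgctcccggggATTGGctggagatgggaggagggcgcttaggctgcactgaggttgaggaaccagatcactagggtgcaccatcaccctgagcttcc
AURKB: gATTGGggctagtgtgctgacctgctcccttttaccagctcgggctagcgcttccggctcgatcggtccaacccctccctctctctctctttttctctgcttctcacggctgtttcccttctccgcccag
CDC25B: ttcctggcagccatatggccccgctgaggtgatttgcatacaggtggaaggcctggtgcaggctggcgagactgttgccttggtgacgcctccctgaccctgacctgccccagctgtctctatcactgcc

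PLK1 and CDC25C had the same arrangement, a CCAAT box followed by a TTTGAA close to the start. In PLK1 the CHR letters lay at -29 to -24 and the CCAAT box at -73 to -69. In CDC25C the CHR letters lay at -30 to -25 and the CCAAT box, on the opposite strand, at -85 to -81. CDC25A had 2 CCAAT boxes and the E2F form TTTGGCGC at -44 to -37, and no CHR. In the windows used, PLK4 and AURKB had 1 CCAAT box each, and CDC25B had none of the letters searched. Other starts of these genes were not searched, so whether a CHR lies at another start is not known from these windows. Over the 35116 promoters of the table, 15.2% held TTTGAA, 1.45% TTCGAA, 34.6% a CCAAT box, 12.3% TAAACA, 0.515% TTTCGCGC and 0.652% TTTGGCGC, and 6.38% held a CHR in either form together with a CCAAT box. No matches overlapped in these 6 windows. A match is a string of letters and not a measured binding site.

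**Figure D1:**
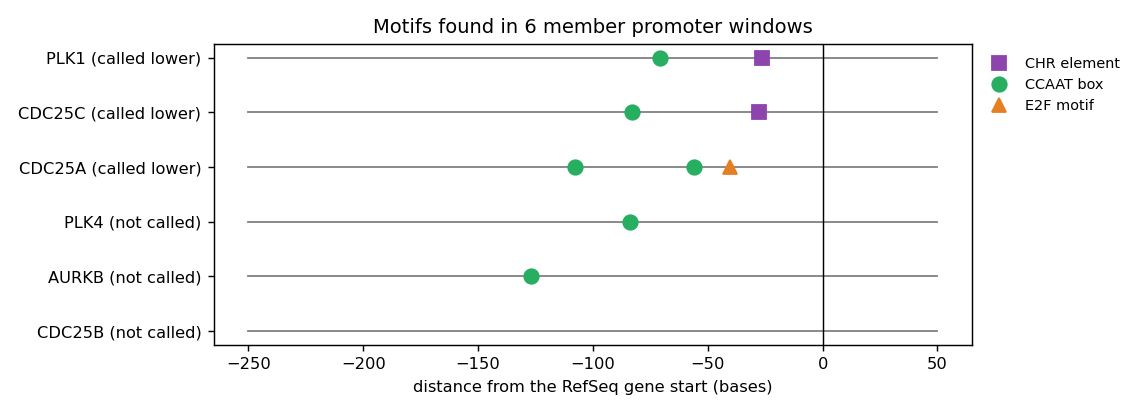
Position of each motif match in the promoter windows of 6 members, as distance in bases from the RefSeq start used for each gene. Squares are CHR letters, circles CCAAT boxes and the triangle E2F letters. PLK1 and CDC25C, both called lower, have a CCAAT box followed by a CHR, and CDC25B has no match. Other starts of a gene were not searched.

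Among the members, FOXM1, PLK1, CDC25A and CDC25C fell with miR-34c, WEE1 rose on each of its 3 probe sets, and the Aurora kinases, PLK4, PKMYT1 and CDC25B did not pass the test. So 4 of 12 probe sets were called lower, beside 7.92% of all probe sets, and 3 of 12 were called higher, beside 7.56%, the last 3 all belonging to 1 gene. The groups did not overlap for these 7 probe sets and for no other member, beside 19% of all probe sets that were lower without overlap and 15.1% that were higher. The median log2 change over the 12 probe sets was -0.0763, beside -0.0345 over all probe sets tested, as the members moved in opposite directions. RNA of a whole culture was measured, so fewer cells in G2 and mitosis and less RNA per such cell cannot be told apart.

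**Figure D2:**
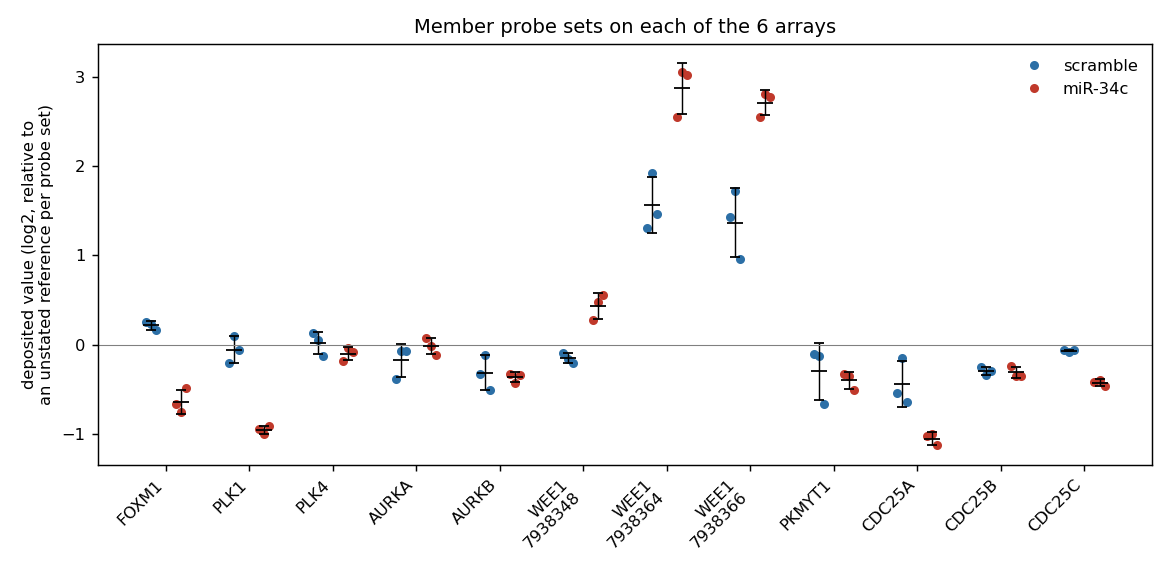
Deposited log2 value (vertical axis, relative to an unstated reference of each probe set) of the 12 member probe sets on the 3 scramble arrays (blue) and the 3 miR-34c arrays (red), with mean and SD in black; heights of different probe sets cannot be compared. FOXM1, PLK1, CDC25A and CDC25C lie lower on every miR-34c array, the 3 WEE1 probe sets lie higher, and the groups of the other 5 overlap.

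FOXM1, the activator of G2/M genes, stood at -0.67, -0.76 and -0.49 on miR-34c arrays 1 to 3. On scramble arrays 1 to 3 its values were 0.26, 0.23 and 0.16. All 3 miR-34c arrays thus lay well below all 3 scramble arrays, and the scramble arrays were close together. The mean was -0.64 ± 0.14 with miR-34c and 0.21 ± 0.049 with the scramble (SD, n = 3 arrays each). The log2 change was -0.86 ± 0.089 (SE), which is 0.553 of the scramble level, with an adjusted p of 0.000399 in limma. It ranked 58 from the lowest change among the 19309 probe sets.

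PLK1, the Polo-like kinase that promotes mitotic entry, centrosome maturation and spindle assembly, had the lowest log2 change among the 12 probe sets. Its values were -0.95, -1.01 and -0.92 on miR-34c arrays 1 to 3. On the scramble arrays they were -0.21, 0.091 and -0.056. The miR-34c arrays agreed within 0.1 and lay far below the scramble arrays, of which replicate 1 was the lowest. PLK1 fell by 0.90 ± 0.092 (SE) on the log2 scale, to 0.536 of the scramble level (limma adjusted p = 0.000367), and ranked 44 on the same scale.

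PLK4, the Polo-like kinase that starts centriole duplication, had values of -0.18, -0.037 and -0.089 with miR-34c and of 0.13, 0.049 and -0.12 with the scramble. The groups overlapped, since scramble replicate 3 lay below 2 of the miR-34c arrays. Its log2 change was -0.12 with a 95% interval from -0.32 to 0.083 (limma adjusted p = 0.431). It was -0.064 without scramble replicate 1 and -0.19 without scramble replicate 3. The 95% interval over all 6 arrays excludes a fall as large as that estimated for PLK1.

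AURKA, the Aurora kinase of centrosomes and spindle poles, had values of 0.073, -0.013 and -0.11 with miR-34c and of -0.39, -0.077 and -0.067 with the scramble. Scramble replicate 1 was low and the other arrays mixed. The log2 change was 0.16 with a 95% interval from -0.076 to 0.40 (limma adjusted p = 0.358), and 0.055 without scramble replicate 1. AURKB, the catalytic subunit of the chromosomal passenger complex, had values of -0.33, -0.43 and -0.34 with miR-34c and of -0.33, -0.11 and -0.50 with the scramble. The scramble arrays enclosed all 3 miR-34c arrays. Its log2 change was -0.049 with a 95% interval from -0.29 to 0.19 (limma adjusted p = 0.81), and its sign turned without scramble replicate 2 (0.053).

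WEE1, the nuclear kinase that inhibits CDK1, is measured by 3 probe sets. Probe set 7938348, which the annotation pairs with RefSeq transcripts of WEE1 and several cDNAs, had values of 0.27, 0.48 and 0.56 with miR-34c and of -0.091, -0.16 and -0.20 with the scramble. Every miR-34c array lay above every scramble array. Its log2 change was 0.59 ± 0.092 (SE), or 1.5-fold, with a limma adjusted p of 0.00321.

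The other 2 WEE1 probe sets are paired in the annotation with 1 cDNA only, BX641032, which is also among the sequences of the first. Probe set 7938364 had values of 2.55, 3.06 and 3.02 with miR-34c and of 1.31, 1.92 and 1.46 with the scramble. Probe set 7938366 had values of 2.56, 2.81 and 2.78 with miR-34c and of 1.43, 1.72 and 0.956 with the scramble. On both, the lowest miR-34c array stood above the highest scramble array, and all 6 arrays stood far above 0, the unstated reference. The log2 changes were 1.31 ± 0.18 and 1.35 ± 0.17 (SE), or 2.48-fold and 2.54-fold, with limma adjusted p-values of 0.00148 and 0.00115. These probe sets share a cDNA and are not independent measurements of WEE1. Their estimated changes were larger than the upper bound of the 95% interval of the first probe set (0.80).

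PKMYT1, the membrane-bound kinase that shares the inhibition of CDK1 with WEE1, had values of -0.34, -0.36 and -0.51 with miR-34c and of -0.11, -0.13 and -0.67 with the scramble. Scramble replicate 3 was the lowest of all 6 arrays. The log2 change was -0.10 with a 95% interval from -0.43 to 0.22 (limma adjusted p = 0.697), the widest interval among the members that did not pass. It was -0.0063 without scramble replicate 1, -0.016 without scramble replicate 2 and -0.29 without scramble replicate 3 (limma adjusted p = 0.0743), and -0.048 without miR-34c replicate 3, so its size rested on single arrays.

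CDC25A, the CDC25 phosphatase that acts at the start of S phase as well as at mitosis, had values of -1.02, -1.01 and -1.13 with miR-34c. On the scramble arrays its values were -0.54, -0.16 and -0.65. The miR-34c arrays were tightly grouped below a wider spread of scramble arrays. CDC25A fell by 0.61 ± 0.12 (SE) on the log2 scale, to 0.657 of the scramble level, with a limma adjusted p of 0.0109. Without scramble replicate 2, its highest array, the log2 change was -0.46 (limma adjusted p = 0.0116). Over the alternatives its limma adjusted p ran from 0.0041 to 0.0431, the highest without miR-34c replicate 3.

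CDC25C, the CDC25 phosphatase that PLK1 phosphorylates at mitotic entry, had values of -0.42, -0.40 and -0.47 with miR-34c. Its scramble values were -0.065, -0.079 and -0.059. Both groups were narrow, with an SD of 0.039 with miR-34c and 0.01 with the scramble, the lowest scramble SD among the 12 probe sets. CDC25C fell by 0.36 ± 0.072 (SE) on the log2 scale, to 0.78 of the scramble level (limma adjusted p = 0.00994). Without miR-34c replicate 3 it no longer passed (log2 change -0.34, adjusted p = 0.0561), and over the alternatives its adjusted p ran from 0.00589 to 0.0561.

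CDC25B, the CDC25 phosphatase that starts CDK1 activation at the centrosome, had values of -0.24, -0.35 and -0.35 with miR-34c and of -0.25, -0.34 and -0.30 with the scramble. The groups lay on top of each other. Its log2 change was -0.015 with a 95% interval from -0.19 to 0.16 (limma adjusted p = 0.922), so a fall of the size estimated for CDC25A or CDC25C lies outside the interval.

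**Figure D3:**
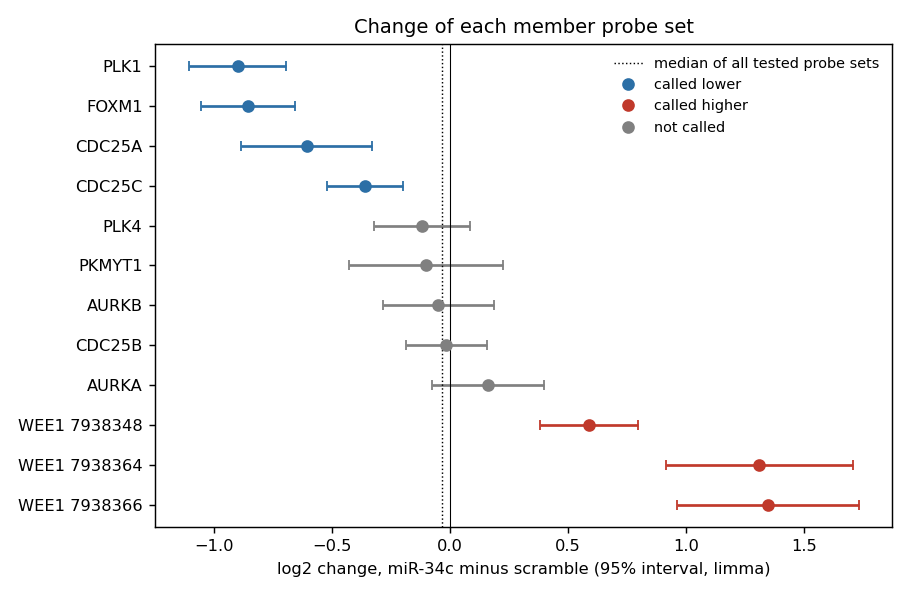
Log2 change of each member probe set (horizontal axis, miR-34c minus scramble) with its 95% interval from limma, ordered by size; the dotted line is the median of all tested probe sets. PLK1, FOXM1, CDC25A and CDC25C lie below 0 (blue), WEE1 lies above it on 3 probe sets (red), and the intervals of the other members (grey) include 0.

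Related members were compared within each array, where the difference of 2 probe sets gives the difference of their log2 changes and the references cancel between groups. PLK1 minus PLK4 ran from -0.97 to -0.77 on the miR-34c arrays and from -0.34 to 0.068 on the scramble arrays, a difference of -0.78 between their log2 changes. CDC25A minus CDC25B ran from -0.79 to -0.66 against -0.35 to 0.18, and CDC25C minus CDC25B from -0.18 to -0.041 against 0.19 to 0.26. PKMYT1 minus WEE1 (probe set 7938348) ran from -1.07 to -0.61 with miR-34c and from -0.46 to 0.038 with the scramble. In these 4 pairs the groups did not overlap. PLK1, CDC25A, CDC25C and WEE1 already stood apart on their own, and the pairs were chosen with these values known. The separation therefore repeats those differences and adds no support to them.

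CDC25A minus CDC25C was also separate, but narrowly, at -0.66 to -0.61 against -0.59 to -0.077, and AURKB minus AURKA overlapped (-0.42 to -0.22 against -0.44 to 0.057). With 3 arrays against 3, the exact two-sided permutation test cannot go below p = 0.1, the value of the 5 separate pairs (0.12 adjusted over the 6 pairs), and AURKB against AURKA gave an exact p of 0.4. This test cannot reach 0.05 with so few arrays, and the differences are given as values from which no call is drawn.

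**Figure D4:**
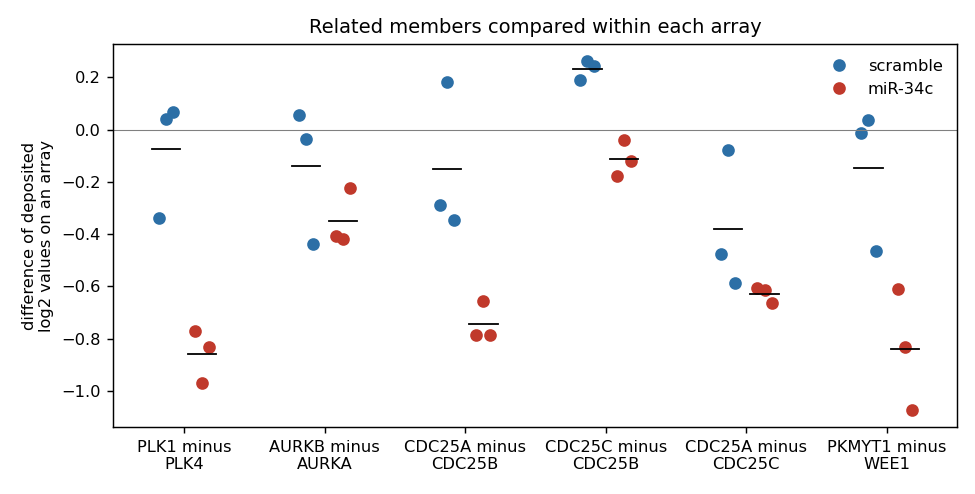
Difference of the deposited log2 values of 2 related members on each array (vertical axis), for the 3 scramble arrays (blue) and the 3 miR-34c arrays (red), with means as black bars; WEE1 is probe set 7938348. The groups are apart for 5 pairs and overlap for AURKB minus AURKA.

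The genes of G2 and mitosis that FOXM1 and MuvB are known to activate were lower in part. Of 42 probe sets (39 genes), 7 were called lower, beside 7.92% of all, and 0 higher in limma (13 lower and 3 higher at an unadjusted p under 0.05); 1 was called higher with a further quantile normalization and 2 with weighted arrays. The median log2 change was -0.16, beside -0.0345 over all, and 33 of the 42 had a negative change, beside 57.8% of all. The smallest adjusted p-values belonged to TOP2A, topoisomerase II alpha (log2 change -0.73), MKI67, the proliferation antigen Ki-67 (-0.67), DEPDC1 (-0.74), ECT2, a guanine nucleotide exchange factor of cytokinesis (-0.37), and ARHGAP11A (-0.36), with limma adjusted p-values from 0.000359 to 0.0153. TOP2A stood at -0.41, -0.48 and -0.53 with miR-34c and at 0.30, 0.23 and 0.24 with the scramble, with no overlap. MKI67 stood at -0.32, -0.29 and -0.26 against 0.36, 0.50 and 0.26. Without miR-34c replicate 2 there were 3 falls, and between 5 and 7 without any other single array, and 1 member was called higher without scramble replicate 2.

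Promoter windows were matched for 34 genes of this list, and 26 of them (76.5%) held a CHR, beside 13.9% of the 14209 tested genes with a window. MuvB binds the CHR, so an excess in a list of known MuvB targets could be foreseen from how the list was made. A CHR together with a CCAAT box was found in 21 of the 34. Of the 7 genes called lower 5 held a CHR, and of the 27 not called 21 did. A CHR together with a CCAAT box was held by 3 of the 7 called lower (TOP2A, MKI67 and DEPDC1) and by 18 of the 27 not called. ECT2 and NUF2, both called lower, held a CHR without a CCAAT box, and ARHGAP11A and CKAP2, also called lower, held neither.

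**Figure D5:**
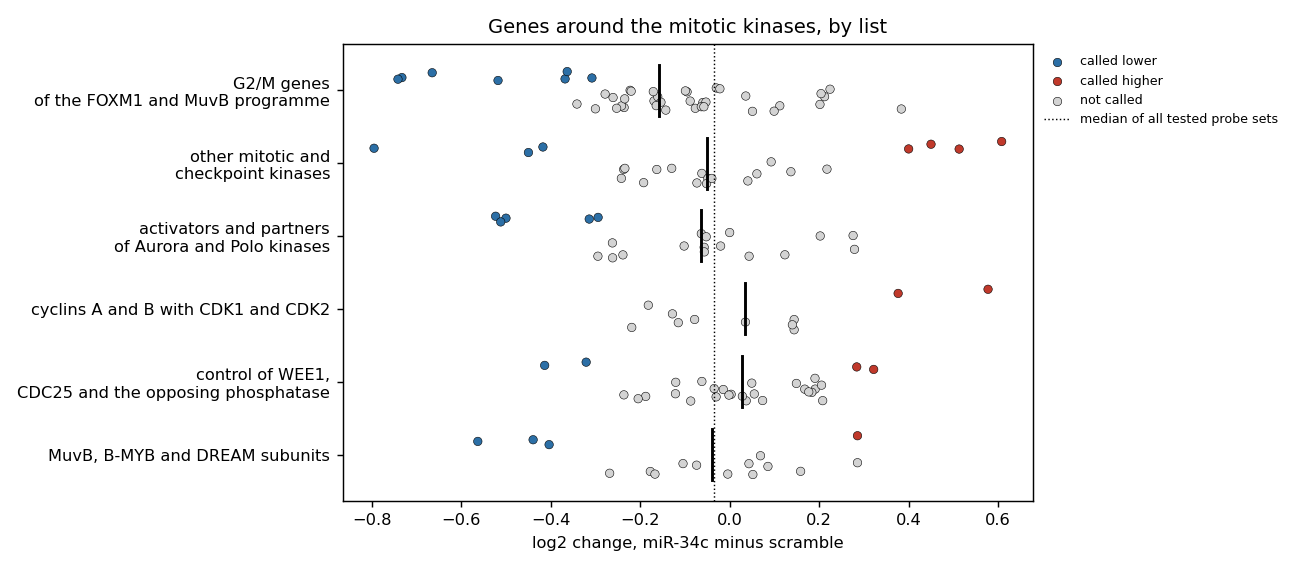
Log2 change (horizontal axis, miR-34c minus scramble) of every probe set of 6 lists of genes around the members, 1 point each, coloured by the limma call; black bars are list medians and the dotted line is the median of all tested probe sets. The G2/M list has 7 falls among 42 probe sets, and the kinases split into 3 falls and 4 rises among 23. Over all probe sets 7.92% were called lower and 7.56% higher.

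Other mitotic and checkpoint kinases went both ways, with 3 of 23 probe sets lower, beside 7.92% of all, and 4 higher, beside 7.56%. The median log2 change was -0.052, beside -0.0345 over all. AURKC, the Aurora kinase best known from meiosis, fell by 0.80 ± 0.083 (SE), to 0.576 of the scramble level (limma adjusted p = 0.000399). Its values were -0.18, -0.14 and -0.11 with miR-34c and 0.77, 0.63 and 0.55 with the scramble, so it was the Aurora kinase whose groups stood apart. The spindle checkpoint kinase BUB1 (log2 change -0.45) and the checkpoint kinase CHEK1 (-0.42), which restrains CDC25 phosphatases after DNA damage, were the other falls. PLK2 and PLK3, stress-responsive Polo-like kinases, rose by 0.51 ± 0.082 and 0.61 ± 0.14 (SE) with limma adjusted p-values of 0.00361 and 0.0187. The Polo-like family thus held a fall (PLK1), 2 rises (PLK2 and PLK3) and 2 members that did not pass (PLK4, and PLK5 at -0.073). PBK (0.40) and MASTL (0.45), the Greatwall kinase that restrains the phosphatase PP2A-B55 in mitosis, were also called higher. Without miR-34c replicate 3 there was 1 fall. The rises numbered 1 without miR-34c replicate 2 or scramble replicate 1, and 2 without miR-34c replicate 1 or 3.

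Activators and partners of the Aurora and Polo kinases held 5 falls among 21 probe sets and 0 rises in limma (9 lower and 3 higher at an unadjusted p under 0.05). Over all probe sets 7.92% were lower and 7.56% higher, so in so short a list the lack of rises is no result. SASS6, the cartwheel protein of new centrioles, fell by 0.52 on the log2 scale, the phosphatase CDC14B by 0.50, and KIF20B, a mitotic kinesin, by 0.51. CEP192, the centrosomal scaffold that recruits AURKA, PLK1 and PLK4, fell by 0.31, and INCENP, the scaffold of the chromosomal passenger complex that binds AURKB, fell by 0.29. TPX2 and BORA, activators of AURKA, did not pass, at log2 changes of -0.26 and -0.02 (limma adjusted p = 0.134 and 0.927). The median of the list was -0.064, beside -0.0345 over all. The falls numbered 2 or 3 without each array but scramble replicate 3, and 2 rises were called without scramble replicate 2, with each array centred on its median, with a further quantile normalization and with weighted arrays.

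CDK1 and its mitotic cyclins did not pass. In limma 0 of 11 probe sets of the cyclins A and B, CDK1, CDK2 and their partners were lower (1 at an unadjusted p under 0.05, CDK1). Called higher were 2, and the median log2 change was 0.035. Over all probe sets 7.92% were lower and 7.56% higher, with a median of -0.0345, so in so short a list the lack of falls is no result. CDK1 had a log2 change of -0.22 (limma adjusted p = 0.171), CCNB1 one of -0.079 and CCNB2 one of -0.18. The rises were CCNA1, the cyclin A of the germ line, by 0.58 and MNAT1, a subunit of the CDK-activating kinase, by 0.38, and 1 rise of this list passed without miR-34c replicate 2.

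Proteins that control WEE1 and the CDC25 phosphatases, or the phosphatase that opposes CDK1, held 2 falls and 2 rises among 29 probe sets, and the median log2 change was 0.028. Both counts are below the shares of all probe sets called lower (7.92%) and higher (7.56%), and are no result about this list. SFN, the 14-3-3 protein sigma, and YWHAB, 14-3-3 beta, whose family binds phosphorylated CDC25 proteins and WEE1, rose by 0.32 and 0.28. ARPP19, a substrate of MASTL that inhibits PP2A-B55, fell by 0.32 on 1 probe set, while its other probe set, at a log2 change of 0.18, did not pass. CRTC2, a coactivator of CREB, fell by 0.41. The falls numbered 0 without miR-34c replicate 3 and 1 without any other single array. The rises numbered 1 without scramble replicate 2 and 0 without any other single array. With all probe sets, and at a threshold of 0.01, 0 rises passed.

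Of the 16 probe sets listed for MuvB, B-MYB and DREAM, a list that also holds the NF-Y subunits and DYRK1A, 3 fell and 1 rose. Over all probe sets 7.92% were lower and 7.56% higher. The median of the list was -0.039, beside -0.0345 over all, so the rise and the median are near those of all probe sets. MYBL2, which encodes B-MYB, fell by 0.56 ± 0.10 (SE) on the log2 scale (limma adjusted p = 0.00644), from scramble values of -0.23, 0.0053 and -0.24 to miR-34c values of -0.87, -0.69 and -0.59. LIN9, a MuvB subunit, fell by 0.44 and TFDP2, a partner of E2F factors, by 0.40. LIN37, another MuvB subunit, rose by 0.29. The rise did not pass without any 1 array other than scramble replicate 2, without which 2 members were called higher, nor with the replicate number as a block, and 2 rises were called with each array centred on its median, with a further quantile normalization and with weighted arrays.

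The genes whose values over the 6 arrays followed those of FOXM1 most closely were MAP3K4, DPP4, ARHGAP24, INHBB and IRS1, with Pearson correlations from 0.998 to 0.999. All 5 were lower with miR-34c, by 0.45 to 0.62 on the log2 scale, so these correlations over 6 shared arrays carry the difference between the groups. None of them is a member or on the lists above. For CDC25B, which did not differ beyond its spread, the closest were IL1RAPL2, KRTAP24-1, GABRA6, OR4N3P and C9 (0.975 to 0.991), none of which passed the test in limma (adjusted p from 0.733 to 0.963).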

How the data were processed

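Total RNA was taken with Trizol and 100 ng per sample was labelled for Affymetrix arrays, per the labels' protocols. RMA in Affymetrix Expression Console made the values, per the submitters' processing notes. The deposited log2 values run from -2.86 to 3.77 around 0; how they were centred, and the genome build of the arrays, are not given in the sources used here. The base 2 is taken from RMA.

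Of the probe sets, 19309 have 1 symbol, 1752 several and 7807 none; those with 1 were fitted with limma 3.58.1 in R 4.3.3 (lmFit with the group as the only term, eBayes without trend), with Benjamini-Hochberg adjustment over all of them and a threshold of 0.05. The trend was left out because centred values carry no brightness. An unadjusted p under 0.05 was found for 5598. In data simulated for this comparison over 19309 probe sets, 67 were changed 1.5-fold, 67 were changed 2-fold and 66 were changed 4-fold. The fit recovered 64.2% of the 1.5-fold, 92.5% of the 2-fold and 98.5% of the 4-fold changes, with 9 false calls. Far fewer probe sets were changed there than the 2988 called in these data. The adjusted p depends on that share, so recovery and false calls here may differ.

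The members, lists and promoter motifs were chosen with earlier results of these data known, so lists are described by counts and medians with no test. Related pairs were chosen by family after the values were seen. Named are all members, up to 5 called genes of each list with the smallest adjusted p, those called against the majority, and the 5 genes most like FOXM1 and CDC25B. The prostate and epithelial markers with single-symbol probe sets are also named. ARPP19 (its other probe set), CDK1, CCNB1, CCNB2, TPX2, BORA, PLK5, PBK, MASTL, NUF2, CKAP2, PECAM1 and PDGFRA were named after their values were seen. Alternatives were a trend or robust prior, the replicate number as a block, centring or quantile normalization of the arrays, array weights, 1 probe set or the mean per gene, all probe sets, a threshold of 0.01, and leaving out each array. No transcript sequences were used, so microRNA sites were not analysed here.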

Additional observations from a re-analysis of the deposited data

How the results depend on the processing

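Of 187 member values under 16 alternatives, 180 kept their direction and their side of the threshold. Many of these could not turn in sign. A trend or robust prior, the block, all probe sets and the threshold of 0.01 leave each log2 change as it is. So do 1 probe set or the mean per gene for members with 1 probe set. A member not called at 0.05 also cannot be called at 0.01. CDC25A did not pass at a threshold of 0.01, and CDC25C did not pass without miR-34c replicate 3. Signs turned for AURKB when 1 array was left out (-0.14 to 0.053) and for CDC25B with centred arrays (0.0029) and when 1 array was left out (-0.053 to 0.0075), none of them called. The count of member probe sets called lower was 3 at the threshold of 0.01 and 3 to 4 when 1 array was left out. The count called higher was 1 with 1 probe set or the mean per gene, where WEE1 counts once, and 3 in the other settings. Over all probe sets, 2988 were called, 1306 at the threshold of 0.01 and 1647 to 2722 when 1 array was left out. With the replicate number as a block 2699 were called and the member calls were the same. The numbers were not taken as pairs in the main fit, because no label says that a number marks a shared culture or day. Same-numbered arrays did not deviate together (correlations of -0.00046, 0.12 and -0.088, and 2 of 6 arrays closest to their own number). Of 256 list counts, 58 moved by more than 1.5 times. Signal over background is unknown in centred values, so weakly expressed genes could not be set aside.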

Other observations

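Over all tested genes with a promoter window, a CHR in either form was found in 15.9% of the 1173 with a probe set called lower, 11.2% of the 1130 with one called higher and 14% of the 11906 not called. A CCAAT box was found in 36.9%, 37.3% and 35.4% of them, and the CHR together with a CCAAT box in 6.14%, 4.51% and 5.8%. These are shares of letters in windows of 300 bases, with no test. MIR34B, a locus beside that of miR-34c, had a log2 change of -0.13 (limma adjusted p = 0.618), which says nothing about a microRNA introduced from outside.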
